A study of Sus scrofa with 13 samples.

Results

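The calcium release unit is the protein assembly through which the sarcoplasmic reticulum of a heart muscle cell lets out the calcium that starts each contraction. The genes described here are HRC, CASQ2, TRDN, ASPH, JPH2, SRL, RYR2, FKBP1B, S100A1 and CALR, taken by gene symbol from the annotation of the array. Of these 10 genes, 6 had a probe set under that symbol, and they had 10 probe sets among the 23999 of the array that are no controls. TRDN, ASPH, JPH2 and SRL were not analysed here. The genes were chosen with the difference between the study's groups in view, since HRC had the smallest p of the named genes and FKBP1B and S100A1 were low too. Their differences between groups are therefore given as a description, with no test.

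The animals, small pigs of the Sinclair miniswine breed, were all female and were operated on at 3 months of age. In every animal a pair of diagonal branches of the artery that feeds the front wall, the left anterior descending, was tied off for good, so both groups carried an infarct. A group of 7 animals then received 50000000 cells, called stem cells and MPCs in the labels, with 10000000 cells at each of 5 sites at the edge of the infarct, in 2 ml of saline. The other 6 animals received 2 ml of saline in 5 injections. Heart tissue was taken with a drill 4 months later, its site in the heart is not stated, and each sample gave 1 porcine expression array. The labels number the arrays within a group but name no animals, so each array was taken as 1 animal, and if arrays shared an animal the spread given here would be partly technical. The values are intensities, the brightness of a probe set after background correction and normalization between arrays, and differences are stem cells minus saline on the log2 scale, on which 1 unit is a doubling.

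Calcium enters the cell through channels of the transverse tubules and opens the ryanodine receptor RYR2, a channel in the membrane of the sarcoplasmic reticulum. Inside the reticulum, calsequestrin (CASQ2) and the histidine-rich calcium-binding protein (HRC) bind the stored calcium, and triadin and junctin, the latter made from ASPH, tie them to the channel. Junctophilin 2 (JPH2) holds the reticulum close to the tubules. FKBP1B, also known as calstabin 2, sits on the channel, and S100A1 is a calcium sensor that binds both the channel and the pump that refills the store. Calreticulin (CALR) is a calcium-binding chaperone of the endoplasmic reticulum, better known from the developing heart than the adult one.

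HRC was lower in every animal that had received stem cells than in any animal given saline. With saline its intensity ran from 161 to 242, with a median of 208. After stem cells it ran from 55.3 to 137, with a median of 83.9. Replicate 4 was the lowest of the stem cell animals and replicate 1 the highest, and the groups did not overlap. On the log2 scale HRC stood at 7.67 ± 0.23 (SD, n = 6) with saline and 6.43 ± 0.50 (SD, n = 7) after stem cells, a difference of -1.23 ± 0.22 (SE), so the saline level was 2.35-fold the stem cell level. Across all 14399 probe sets tested, 17 had a more negative difference than HRC. None of the 14399, HRC included, passed an adjusted p of 0.05 by limma. Of the 9 member probe sets tested, 1 had groups that did not overlap, the one for HRC, while over all probe sets tested 0.278% did not overlap in either direction and 0.16% did so with stem cells lower.

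**Figure D1:**
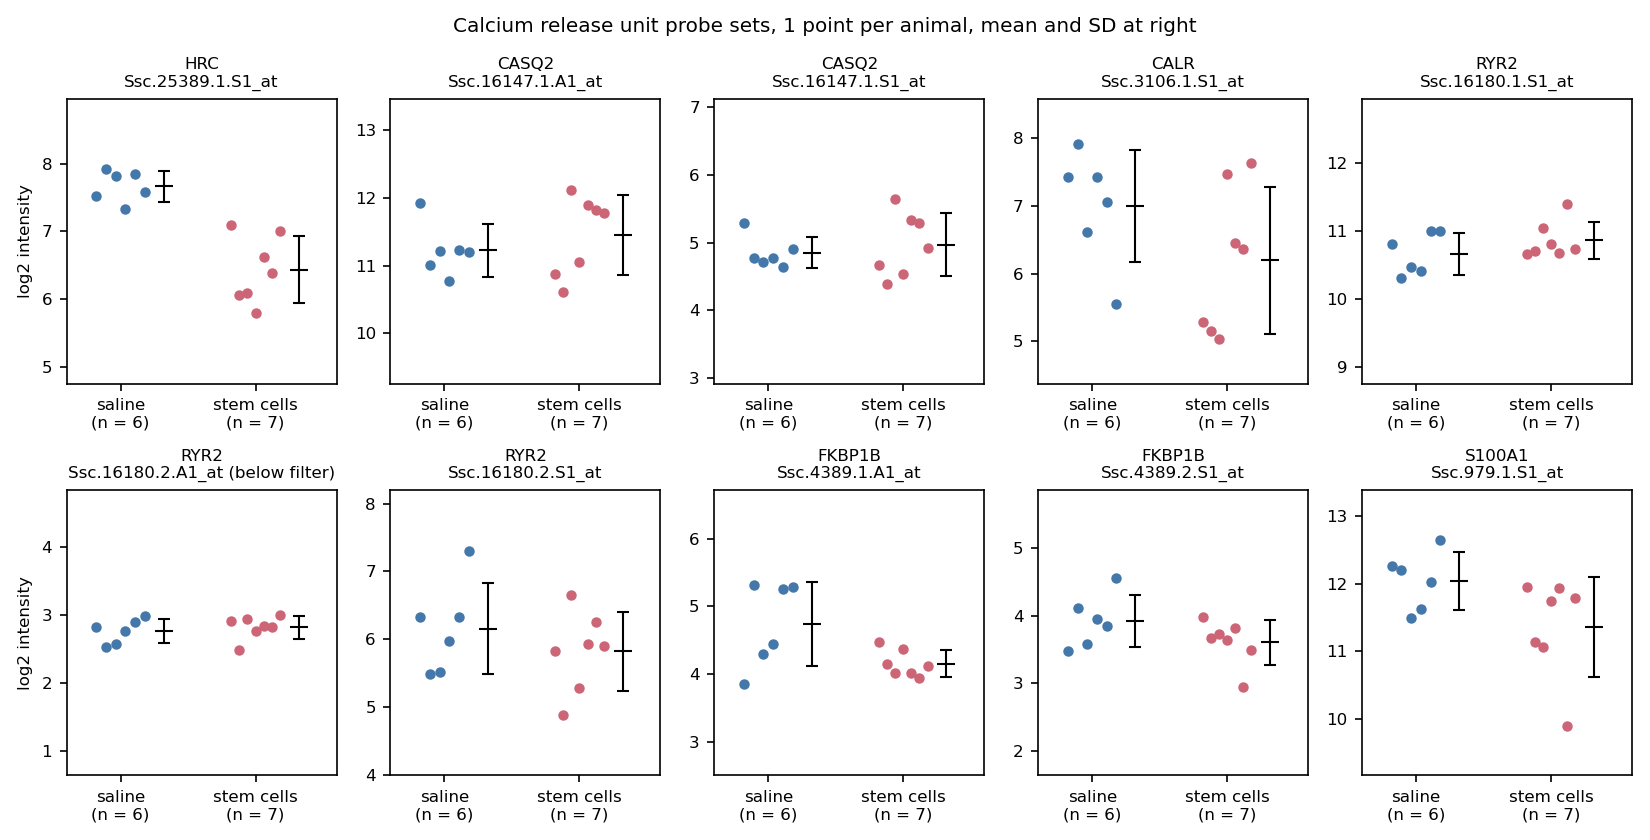
Log2 intensity (y axis) of the 10 member probe sets in saline animals (blue, n = 6) and stem cell animals (red, n = 7), 1 point per animal, with the group mean and SD in black at the right of each group. Every panel spans the same number of log2 units. HRC is the 1 probe set in which all stem cell animals lie under all saline animals, and S100A1 has 1 stem cell animal far below the others.

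CASQ2, the main calcium buffer of the cardiac reticulum, had 2 probe sets. In the first, with the higher mean, saline animals ran from 1750 to 3910, with a median of 2360, and stem cell animals from 1560 to 4440, with a median of 3510. The lowest and the highest of the 13 values both belonged to stem cell animals, replicates 2 and 3. Its log2 difference was 0.23 ± 0.25 (SE). The second probe set ran from 24.9 to 38.9 with saline and from 21.0 to 50.1 after stem cells, with a difference of 0.12 ± 0.21 (SE). Both differences were smaller than their SE, and without stem cells replicate 3 they came to 0.11 and 0.0085, while without stem cells replicate 2 they came to 0.37 and 0.22.

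CALR varied more between animals of 1 group than the other members. Saline animals ran from 47.0 to 242, with a median of 152, and stem cell animals from 32.8 to 198, with a median of 82.4. Stem cell replicates 1, 2 and 3 lay under every saline animal, while replicates 4 and 7 lay among the higher saline animals. The difference was -0.80 ± 0.48 (SE). The SD within groups was 0.977 on the log2 scale, at the 97.5th percentile of all probe sets tested, whose median was 0.321, and HRC had 0.398, at the 66.7th percentile.

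The channel itself, RYR2, gave opposite signs in its probe sets. In the one with the highest mean, saline animals ran from 1260 to 2050, with a median of 1600, and stem cell animals from 1620 to 2700, with a median of 1700. Here 6 of 7 stem cell animals lay above the saline mean, and the log2 difference was 0.20 ± 0.16 (SE), or 0.11 without stem cells replicate 6 and 0.13 without saline replicate 2. In another probe set the intensities were 45.0 to 158 with saline and 29.6 to 101 after stem cells, with a difference of -0.34 ± 0.32 (SE). That value was -0.11 without saline replicate 6, the brightest array, and -0.18 without stem cells replicate 2. The mean over both differences was -0.07. The last RYR2 probe set, at intensities of 5.58 to 8.0 over all animals, lay below the level required for testing.

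FKBP1B, which binds to the channel, had a lower mean after stem cells, and its saline animals were split. In the probe set with the higher mean, 3 saline animals had intensities of 38.1, 38.8 and 39.7, and the other 3 had 14.5, 19.7 and 21.8. All 7 stem cell animals lay between 15.3 and 22.1, alongside those lower saline animals. On the log2 scale the SD was 0.62 (n = 6) with saline and 0.20 (n = 7) after stem cells, and the difference was -0.59 ± 0.23 (SE). It came to -0.38 when arrays were weighted by their quality. The second probe set of the gene ran from 11.1 to 23.5 with saline and from 7.67 to 15.7 after stem cells. Its difference was -0.31 ± 0.18 (SE), or -0.19 without saline replicate 6 and -0.15 with array weights. Its mean log2 intensities of 3.92 with saline and 3.61 after stem cells lay close to the level of 3.36 that testing required. Stem cells replicate 6, at 2.94, lay below that level. The means of the probe set described first were 4.74 and 4.15.

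S100A1, which raises calcium cycling in heart muscle, was lower on average after stem cells, with 1 animal far below the rest. Saline animals ran from 2880 to 6410, with a median of 4425, and stem cell animals from 958 to 3960, with a median of 3420. The value of 958 came from stem cells replicate 6, and replicates 2 and 3, at 2250 and 2140, also lay under every saline animal. All 7 stem cell animals were below the saline mean, and 4 of 6 saline animals were above every stem cell animal. The difference was -0.68 ± 0.30 (SE), and -0.44 without stem cells replicate 6. In that animal the mean of 7 immediate early genes, which respond quickly to stress, was 6.70 on the log2 scale, against 9.51 to 10.72 in the other stem cell animals and 9.31 to 11.40 in saline animals. Over 13 animals the within-group r of S100A1 with that mean was 0.47 (permutation p of 0.15, adjusted 0.473 over 15 relations, rho of -0.08, permutation p of 0.797), and -0.35 without saline replicate 3 and stem cells replicate 6.

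**Figure D2:**
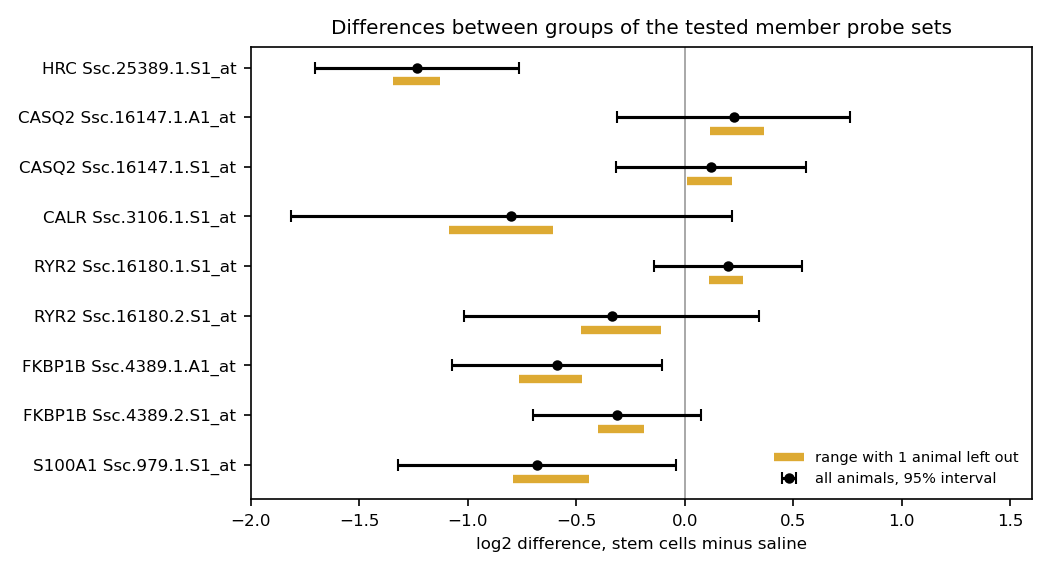
Log2 difference, stem cells minus saline (x axis), of the 9 tested member probe sets (y axis), with 95% intervals from the fit across all probe sets (black) and the range of the difference when 1 animal is left out (yellow). The values describe genes chosen on this contrast. HRC stays between -1.35 and -1.13 with any animal left out, and the 2 tested probe sets of RYR2 lie on opposite sides of 0.

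With 1 probe set per gene, 4 of 6 genes had a negative difference and 2 a positive one, and the median was -0.636. Over all 9 member probe sets tested 6 were negative, with a median of -0.337, while 47.2% of all probe sets tested were negative and their median was 0.0169. The animals differed in how many genes were low, counted here with 1 probe set per gene. Stem cells replicate 2 lay under every saline animal in 4 of the 6 genes (HRC, CASQ2, CALR and S100A1) and replicate 3 in 3 of them (HRC, CALR and S100A1). The array of replicate 2 also had the highest log2 ratio of 3' to 5' control signal of actin, 5.03, a ratio that rises as RNA degrades. It had the lowest mean of the endothelial markers as well, 8.76. Whether either bears on its count was not tested. Replicate 3 also lay above every saline animal in CASQ2 and RYR2. By the same count, replicates 4, 5 and 7 lay under all saline animals in HRC alone and above them in 0 of the 6 genes. In the second CASQ2 probe set, left out of that count, replicate 4 lay under all saline animals at 23.1 and replicate 5 above them at 40.3, and in the RYR2 probe set with the negative difference replicate 4 lay under them at 38.8.

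Whether the members vary together between animals given the same treatment is a question that the choice of genes did not use. Each animal's deviation from its group mean was compared between HRC and the other 5 genes, using for each gene its probe set of highest mean intensity. Pearson's r over 13 animals was 0.28 with S100A1 (permutation p of 0.483, Spearman's rho of 0.35, permutation p of 0.263), 0.22 with FKBP1B (permutation p of 0.295, rho of 0.27, permutation p of 0.263) and -0.21 with RYR2 (permutation p of 0.519, rho of -0.26, permutation p of 0.335). It was 0.09 with CASQ2 (permutation p of 0.794, rho of 0.08, permutation p of 0.815) and 0.08 with CALR (permutation p of 0.817, rho of 0.17, permutation p of 0.608). All 5 adjusted values were 0.817 for r (two-sided, Benjamini-Hochberg) and 0.559 to 0.815 for rho. Without stem cells replicates 1 and 7, the animals farthest from the median of HRC, r was -0.09 with S100A1, 0.15 with FKBP1B, 0.03 with RYR2, 0.37 with CASQ2 and 0.00032 with CALR. Within the saline group r ran from -0.07 with RYR2 to 0.50 with FKBP1B, and within the stem cell group from -0.30 with RYR2 to 0.34 with S100A1. None of the 5 relations passed, and 13 animals limit how small a relation could be seen.

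**Figure D3:**
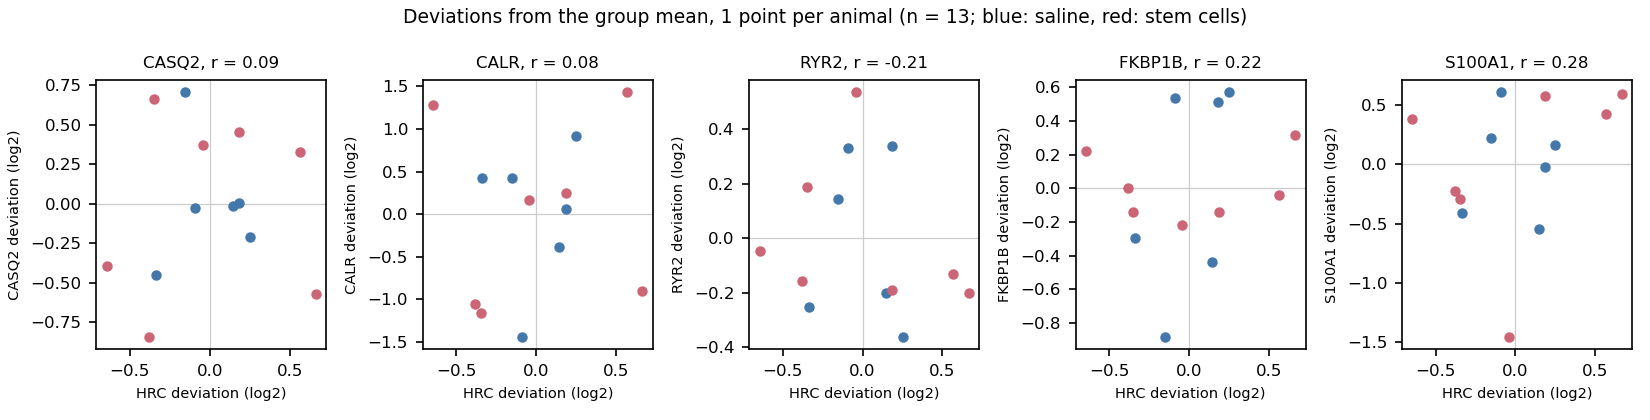
Deviation of each animal from its group mean on the log2 scale, HRC on the x axis and CASQ2, CALR, RYR2, FKBP1B or S100A1 on the y axis, for saline (blue, n = 6) and stem cell animals (red, n = 7), with Pearson's r over 13 animals above each panel. The points show no clear slope in any panel, and r runs from -0.21 to 0.28.

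Of 5 pairs of probe sets for the same gene, a comparison added after the values were seen, 4 varied together at an adjusted p under 0.05. For the 2 probe sets of CASQ2 r was 0.90 (permutation p of 0.00056, adjusted 0.0014 over 5 pairs, rho of 0.86, permutation p of 0.00238), and 0.83 without the 2 animals farthest from the median. The RYR2 probe sets whose differences had opposite signs had an r of 0.70 (permutation p of 0.0114, adjusted 0.019, rho of 0.76, permutation p of 0.00794), and 0.79 without 2 animals. Animals high in one thus tended to be high in the other within their group, while the differences between groups had opposite signs. The RYR2 probe set below the level for testing had an r of 0.86 with the second of these (permutation p of 0.00034, adjusted 0.0014, rho of 0.77, permutation p of 0.00578), and 0.78 without 2 animals. With the first it had an r of 0.51, which did not pass (permutation p of 0.0899, adjusted 0.0899, rho of 0.50, permutation p of 0.107), and 0.61 without 2 animals. For FKBP1B r was 0.67 (permutation p of 0.0159, adjusted 0.0199, rho of 0.62, permutation p of 0.0362), and 0.59 without saline replicates 1 and 2 (permutation p of 0.0795), so that relation rests partly on those animals. Among all 15 pairs of the 6 genes, 1 had a permutation p under 0.05, CASQ2 with FKBP1B at an r of -0.46 (permutation p of 0.0435, adjusted 0.623, rho of -0.45, permutation p of 0.0796). Without saline replicate 1 and stem cells replicate 2 it was -0.29, and 0 of the 15 pairs passed after adjustment.

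The genes whose deviations were most like those of HRC over 13 animals, among 6883 probe sets with 1 symbol, were TPGS2 (r of 0.88), SNRPC (0.87), COX8H (0.87), FIS1 (0.87) and ATP5G1 (0.87). The most opposite were LRRFIP1 (-0.86), RAB1A (-0.83) and RAB3GAP2 (-0.81). For FKBP1B the closest were SLC9A3R1 (0.89), DNAJC3 (0.86), ECSCR (0.84), SIGIRR (0.82) and MYH9 (0.80). For S100A1 they were COPRS (0.90), CYSTM1 (0.90), POLR1D (0.88), HGSNAT (0.87) and CTTN (0.87). These values are the extremes over all 6883 probe sets, come from the same 13 arrays and describe only them. Those of S100A1 include stem cells replicate 6, at 9.90 on the log2 scale against a stem cell mean of 11.36. No values without that animal are given here.

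The biopsies held heart muscle in both groups. Of 15 cardiomyocyte markers 12 had a probe set, all 12 were tested, and their mean log2 intensity lay between 13.92 and 14.10 with saline and between 13.97 and 14.23 after stem cells. Because tissue was measured in bulk, fewer cells of a type and less RNA per cell cannot be told apart. The 9 measured fibroblast and matrix markers averaged 8.68 ± 0.57 (SD, n = 6) with saline and 8.80 ± 0.57 (SD, n = 7) after stem cells. Macrophage markers, 5 of 6 measured, ran from 6.70 to 7.95 with saline and from 6.07 to 7.41 after stem cells (exact permutation p of 0.0775, adjusted 0.397). Smooth muscle markers, 4 of 5 measured, ran from 9.25 to 10.73 and from 7.88 to 10.16 (exact permutation p of 0.115, adjusted 0.397). Endothelial markers, 5 of 6 tested, ran from 9.24 to 9.79 and from 8.76 to 9.73, and fat markers, 2 of 4 tested, from 11.59 to 12.62 and from 11.82 to 12.74. The defining fat marker ADIPOQ was not tested, at a mean log2 intensity of 2.7, near the highest mean of the tag controls, 2.58. Skeletal muscle had 1 of 6 markers tested, TNNI2, at a mean of 4.17. The log2 ratio of 3' to 5' control signal of EF1A, which rises as RNA degrades, was 0.95 ± 0.098 (SD, n = 6) with saline and 0.81 ± 0.11 (SD, n = 7) after stem cells (exact permutation p of 0.046, adjusted 0.397 over 11 measures). The same ratio of actin was higher and uneven between arrays, from 2.21 to 4.20 with saline and from 1.61 to 5.03 after stem cells (exact permutation p of 0.664, adjusted 0.883). That of GAPDH ran from 0.10 to 1.12 and from 0.02 to 1.12 (exact permutation p of 0.959, adjusted 0.959). With a covariate for tissue makeup, the cardiomyocyte mean minus the matrix mean, HRC was at -1.23, and with the mean 3' to 5' ratio as a covariate at -1.26. The SD of the cardiomyocyte mean was only 0.068 with saline and 0.10 after stem cells, so the tissue covariate mostly follows the matrix mean. The SD of the actin ratio was 0.74 with saline and 1.11 after stem cells, far above that of EF1A. The mean 3' to 5' ratio therefore mostly follows actin and adjusts little for the EF1A ratio. The within-group r of HRC was 0.02 with the cardiomyocyte mean (permutation p of 0.945, rho of 0.12, permutation p of 0.736) and -0.38 with the matrix mean (permutation p of 0.219, rho of -0.30, permutation p of 0.367, r of -0.05 without stem cells replicates 1 and 7), and 0 of 6 such relations passed (adjusted p of 0.945). With the matrix mean r was 0.46 in saline animals (exact permutation p of 0.399) and -0.74 in stem cell animals (exact permutation p of 0.0647), neither adjusted.

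The other members were set against the marker means in a comparison that was also added later. RYR2 had an r of 0.71 with the cardiomyocyte mean (permutation p of 0.00706, adjusted 0.106 over 15 relations, rho of 0.60, permutation p of 0.0189), and 0.47 without saline replicate 5 and stem cells replicate 6. CASQ2 had an r of 0.63 (permutation p of 0.0481, adjusted 0.339, rho of 0.62, permutation p of 0.0481), and 0.51 without saline replicate 1 and stem cells replicate 2. Neither passed after adjustment.

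Other genes of calcium handling in heart muscle, 105 in a list that held no member, were tested in the same fit. Of these, 62 had a probe set and 51 genes, in 81 probe sets, were tested. By limma 0 of 81 passed an adjusted p of 0.05, against 0.0% of all 14399 probe sets. At an unadjusted p under 0.05 there were 9, or 11.1%, against 10.5% of all probe sets. Of the 9, 6 were lower after stem cells and 3 higher, where the share of all probe sets was 5.15% lower and 5.4% higher. Without stem cells replicate 6 the count was 5, and over all probe sets it was 1026 in place of 1519. In the list 37 of 81 probe sets were negative, with a median log2 difference of 0.0654. With 1 probe set per gene 27 of 51 were negative and the median was -0.0248.

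Of the 8 listed relatives of the channel and its partners 4 had a probe set. RYR1 and RYR3, other ryanodine receptors, and JPH3, another junctophilin, were below the level for testing. FKBP1A, the sister protein of FKBP1B that is made in most tissues, averaged 11.24 ± 0.10 (SD, n = 6) with saline and 10.97 ± 0.13 (SD, n = 7) after stem cells, a difference of -0.27 ± 0.097 (SE, limma adjusted p of 0.42). All 7 stem cell animals were below its saline mean.

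Genes that move calcium across membranes had values on both sides of 0. SLC8A1, the sodium-calcium exchanger, was at 1.16 ± 0.52 (SE, limma adjusted p of 0.458), above the saline mean in 5 of 7 stem cell animals. ATP2A2, which encodes the calcium pump SERCA2, and its inhibitor PLN were at 0.14 ± 0.10 and 0.21 ± 0.12 (SE). ORAI1, the channel of store-operated entry, was at -0.55 ± 0.14 (SE, limma adjusted p of 0.393), with all 7 stem cell animals below the saline mean, and its mean log2 intensities of 3.91 and 3.36 lay close to the level of 3.36 that testing required. STIM2 and ITPR1 were at -0.20 ± 0.14 and -0.04 ± 0.12.

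Among calmodulin and its kinase, which tune the release channel, CAMK2D was at 0.36 ± 0.13 (SE, limma adjusted p of 0.42), with all 7 stem cell animals above the saline mean. CALM3 was at -0.88 ± 0.26 (SE, limma adjusted p of 0.393) in one probe set, but its 4 tested probe sets split 2 and 2 in sign. Of 13 tested genes of protein kinase A and the phosphatases 9 were positive, from -0.51 for PPP1R1A (-0.29 without saline replicate 3) to 0.50 for AKAP7, with 0 at an unadjusted p under 0.05.

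Another role in the list was that of luminal calcium-binding proteins and chaperones. Their 8 tested genes split 4 and 4 in sign, with a median of -0.0060. SDF4, a calcium-binding protein of the Golgi, was the lowest at -0.34 ± 0.15 (SE, limma adjusted p of 0.458), and -0.22 without saline replicate 2. Calnexin (CANX) and the reticulum form of HSP90 (HSP90B1) were at 0.07 ± 0.11 and 0.02 ± 0.12.

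In the mitochondrial group VDAC2 had 5 tested probe sets, 4 of them negative. The lowest was at -0.49 ± 0.16 (SE, limma adjusted p of 0.41), while the probe set with the highest mean was at -0.03 ± 0.096. The positive probe set was at 0.29 ± 0.17 (SE). Of genes of membrane structure, SLMAP was at 0.34 ± 0.15 (SE, limma adjusted p of 0.458) and CMYA5 at 0.44 ± 0.22 (adjusted p of 0.505, limma), or 0.28 without saline replicate 2. BIN1, which shapes the transverse tubules, was at -0.27 ± 0.19.

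**Figure D4:**
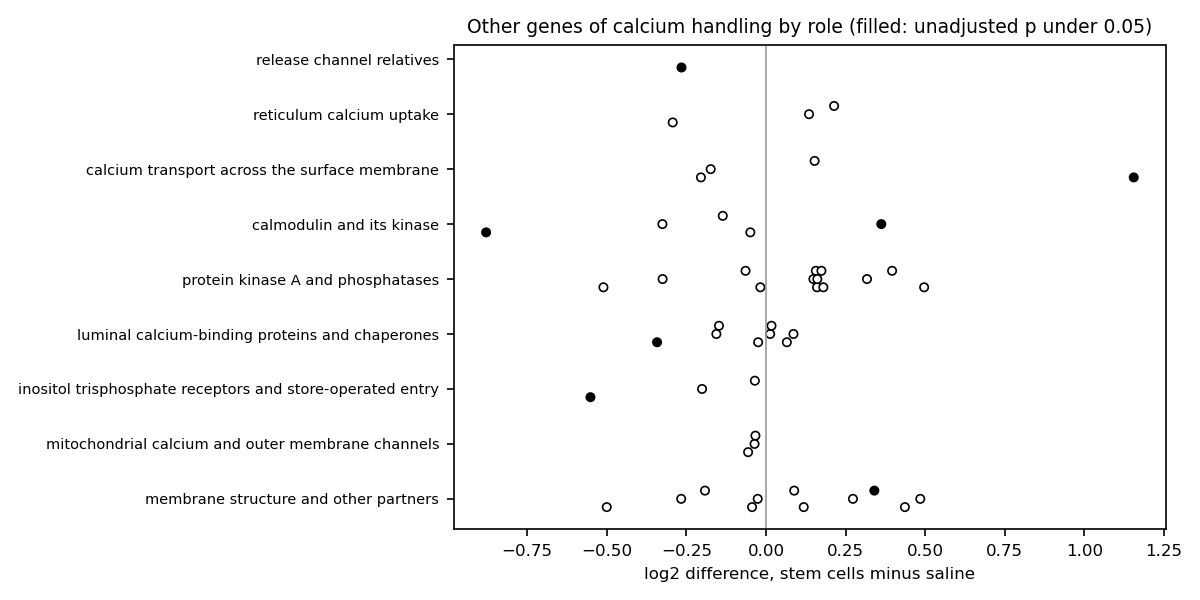
Log2 difference, stem cells minus saline (x axis), of 51 other genes of calcium handling by role (y axis), 1 point per gene at its probe set with the highest mean, filled where the unadjusted limma p is under 0.05. Points lie on both sides of 0 in most rows, from -0.88 for CALM3 to 1.16 for SLC8A1, and 0 genes pass an adjusted p of 0.05.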

How the data were processed

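The authors deposited linear intensities, 1 per probe set and array. GCRMA is the tool named in the submitters' processing notes, and its version and settings are not given. Normalization between arrays hides a change shared by most genes. Median intensity per array was 13.5 to 14.0, and arrays correlated at 0.936 to 0.986. The labels give no batch, and the number of arrays limits precision. The deposited intensities were put on the log2 scale. The 124 controls were left out. Probe sets with a mean above the 40th percentile, a log2 level of 3.36, were tested (14399). Gene names come from GEO's platform annotation, which can be old: 10069 probe sets had 1 symbol, 198 several and 13732 none. Groups were compared with limma 3.58.1 in R 4.3.3 (lmFit, eBayes with trend), adjusted by Benjamini-Hochberg over all probe sets tested, and the fit was tested on simulated data. Correlations used deviations from group means and 100000 permutations within groups (SciPy 1.17.1, NumPy 2.4.6), and marker means used exact permutation over all splits. Members and lists were chosen with earlier results of these data known. Named genes were every member, the 10 other calcium handling genes with the smallest p, the genes with the most similar deviations, and further genes of each role to show its range, the last chosen after their values were seen. The division by role was also made then.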

Additional observations from a re-analysis of the deposited data

Results flagged for a closer look

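In 62 groups of values examined, 4 had an extreme animal standing apart from the rest of its group, and chance gives about 1 in 20. The immediate early gene mean was 6.70 (log2) in stem cells replicate 6. The fat marker mean was 11.59 in saline replicate 6. In saline replicate 2 SDF4 was at 10.49 and CMYA5 at 11.43. None of the member probe sets had such an animal, S100A1 in stem cells replicate 6 included.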

How the results depend on the processing

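All 217 alternative values of the member differences moved by less than the SD within groups, and 1 changed sign, that of RYR2 averaged over its probe sets (-0.07). Much of this was fixed in advance. Other filters and variance settings cannot change a difference, and the floor left each one as it was. Leaving out 1 animal cannot move a difference by as much as that SD. HRC ran from -1.35 to -1.11 over 24 alternatives. HRC was the 1 member probe set with groups apart under both other scalings. Leaving out an animal cannot make groups that are apart overlap, so for HRC those fits add nothing. No other member probe set came apart when any animal was left out. Among the other calcium handling genes 0 probe sets passed in any of 24 other fits, whose filters changed how many were tested, or at an adjusted p of 0.10, against 9 of 81 at an unadjusted p of 0.05 in the fit reported. Their median turned to -0.0016 with no filter, -0.0069 without stem cells replicate 3 and -0.0248 with 1 probe set per gene. None of the correlations of HRC with members passed under any alternative. Replicate numbers 1 to 6 occur in both groups, but same-numbered animals correlated at -0.27 to 0.24 and 0 of 6 was closest to its own number. The animals were therefore not treated as pairs, although so few values cannot exclude a pairing that the labels leave out. With a replicate block, which leaves out stem cells replicate 7, HRC was at -1.33 and 0 genes of the list passed. Without that animal and without a block HRC was also at -1.33, since a block on equal groups cannot move the difference.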

Other observations

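Among all 15 pairs of the 6 members, S100A1 and RYR2 had deviations from the group mean with an r of 0.58 in the 6 saline animals (exact permutation p of 0.239) and -0.92 in the 7 stem cell animals (exact permutation p of 0.0121, not adjusted). Over all 13 animals r was -0.37 (permutation p of 0.219, adjusted 0.82, rho of -0.02, permutation p of 0.965) and 0.23 without saline replicate 5 and stem cells replicate 6. In the stem cell animals without replicate 6 it was -0.66 (n = 6, exact permutation p of 0.0958), a value added after the data were seen. Stem cells replicate 6 had the lowest S100A1 and the highest RYR2. S100A1 and FKBP1B had an r of 0.37 over 13 animals (permutation p of 0.119, adjusted 0.623, rho of 0.52, permutation p of 0.0686) and 0.60 without saline replicates 1 and 2 (permutation p of 0.0212, not adjusted). Of the probe sets compared, 1.22% had an r beyond 0.8 in size with S100A1, against 0.276% with HRC and 0.145% with FKBP1B, and the difference was not tested. The share for S100A1 includes stem cells replicate 6, and no share without that animal is given here.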
